A study of Rattus norvegicus with 6 samples.

Results

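Ciliated airway cells were the 117 cells, of 25547 in the whole series and 0.458% of them, chosen by their counts of ciliary, leukocyte and endothelial transcripts. A cell was taken when it held at least 1 UMI (a unique molecular identifier, which counts 1 captured mRNA molecule) of 2 or more of Tekt1, Rsph1, Ccdc113 and Dynlrb2, at least 1 of them Tekt1 or Rsph1, and no UMI of Ptprc or Cdh5. Foxj1 and Tppp3, which the rule also names, were not analysed here. The lungs came from young adult Sprague Dawley rats that received either BLM (bleomycin, a DNA-damaging drug used to produce lung fibrosis) once into the trachea at 5 mg/kg or the same volume of saline, and all lungs were taken on day 28. There were 3 control (saline) and 3 BLM rats and each gave 1 BD Rhapsody library of a digested piece of perfused lung. The study compared the cells of fibrotic and control lungs.

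Multiciliated cells line the conducting airways among secretory (club and goblet) and basal cells, and their beating cilia move mucus towards the throat. Each motile cilium is built on a basal body and holds an axoneme of doublet microtubules with a central pair, dynein arms as motors, radial spokes and nexin links as the control of the beat, and filamentous proteins inside the doublets. Intraflagellar transport carries the parts along the cilium, and dynein arms are assembled in the cytoplasm by dedicated factors. Transcription of these genes is driven by factors of the RFX family, which bind a motif called the X-box, and by the forkhead factor Foxj1.

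Cell names in the table end in N or F and a number. They were read as control and BLM rats because the cells so named add up to the study's totals for the groups, and the replicate within a group rests on the number alone. The cells were few in control rats. Control replicates 1, 2 and 3 held 6, 4 and 2 of them, and BLM replicates 1, 2 and 3 held 17, 72 and 16. Their total depth was 14337, 13564 and 11415 UMIs in the control rats and 66673, 253934 and 61456 UMIs in the BLM rats, so that values of the control rats rest on 39316 UMIs against 382063. The median member held 3527 UMIs and 1856 genes, against 1411.5 UMIs and 838 genes in all other cells. The median depth of members per rat was 3706.5 ± 1872.5 UMIs in controls and 3568 ± 305 in BLM rats (mean ± SD, n = 3, two-sided exact permutation p = 0.9).

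Control replicate 3 stood apart from the rest. One of its 2 cells held 1417 UMIs of Scgb1a1 and 342 of Scgb3a2, the secretoglobins of club cells, and the 21 measured airway secretory genes together made up 162155 CPM (UMIs per 1000000 UMIs summed over the cells named) of its members against 26762 to 39409 in the other controls and 13079 to 17508 in BLM rats. Its summed level of 11 alveolar type 2 genes was 17083 CPM against 1474 to 2232 in the other controls. The part of these transcripts in the comparisons was not tested, and results are given with and without this rat where they depend on it. Of all cells, 629 had a barcode that also occurred in another rat, and 2 members were among them.

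The rule genes themselves set the membership and are given as a description. Rsph1, a radial spoke head protein, had a UMI in 93.2% of members, Dynlrb2, a dynein light chain, in 89.7%, Ccdc113 in 77.8% and Tekt1, a filament protein of the doublet, in 75.2%. All 4 were seen in 63 members, 3 in 33 and 2 in 21. The 21 members at the limit of the rule had a median of 1302 UMIs. Just outside it were 70 cells with Tekt1 or Rsph1 alone, whose median was 3014 UMIs. When all cells were clustered without the rule genes, 115 members fell into 1 of 27 clusters, which held 191 cells and was led by Ccdc153, Cfap126 and RGD1565611. Of the 70 cells just outside the rule, 16 lay in that cluster, and of the 21 just inside it, 20 did.

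Many of the genes that stood highest in these cells are known genes of the motile cilium. The rule chose the cells by genes of this same contrast, so the values that follow are a description with no test. Ccdc153, a nexin link protein, was at 1465, 1253 and 701 CPM in the members of control replicates 1 to 3 and at 1469.9, 1938 and 1659.7 CPM in those of the BLM rats, with a mean of 1.72 CPM in all other cells. It had a UMI in 93.2% of members and in 0.171% of the cells with Ptprc, the leukocytes, which should lack it and had median depths of 1609 UMIs in control and 1335.5 in BLM rats. Every rat's members lay far above the other cells of the same rat, and the log2 ratio of the mean levels was 9.02 on the CPM + 1 scale.

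Ccdc153 led a set of 20 genes with log2 ratios between 7.80 and 9.02, from which the rule genes were left out (their own ratios were 7.70 to 8.75). Cfap126 reached 2167 ± 496 CPM (mean ± SD over 6 rats) against 3.49 in all other cells, and Dnah12, an axonemal dynein heavy chain, 1337 ± 308 against 4.91. Rsph10b, a radial spoke gene, Spag17 of the central pair, Ropn1l of the spoke stalk and the adenylate kinases Ak7 and Ak9 were among the 20. Sntn, whose protein sits at the tips of cilia, was at 511 ± 289.5 CPM against 0.804. Sec14l3, a lipid transfer protein, had the highest level of the 20 at 7126 ± 3767 CPM in members and 29.4 CPM elsewhere. Fgfbp1, a carrier of fibroblast growth factors and no known part of the axoneme, was at 480.1 ± 329 CPM against 1.07, with no UMI in the 2 cells of control replicate 3. 4 of the 20, AABR07071287.1, AC128059.1, LOC680885 and RGD1565611, carry only provisional names in the files.

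**Figure D1:**
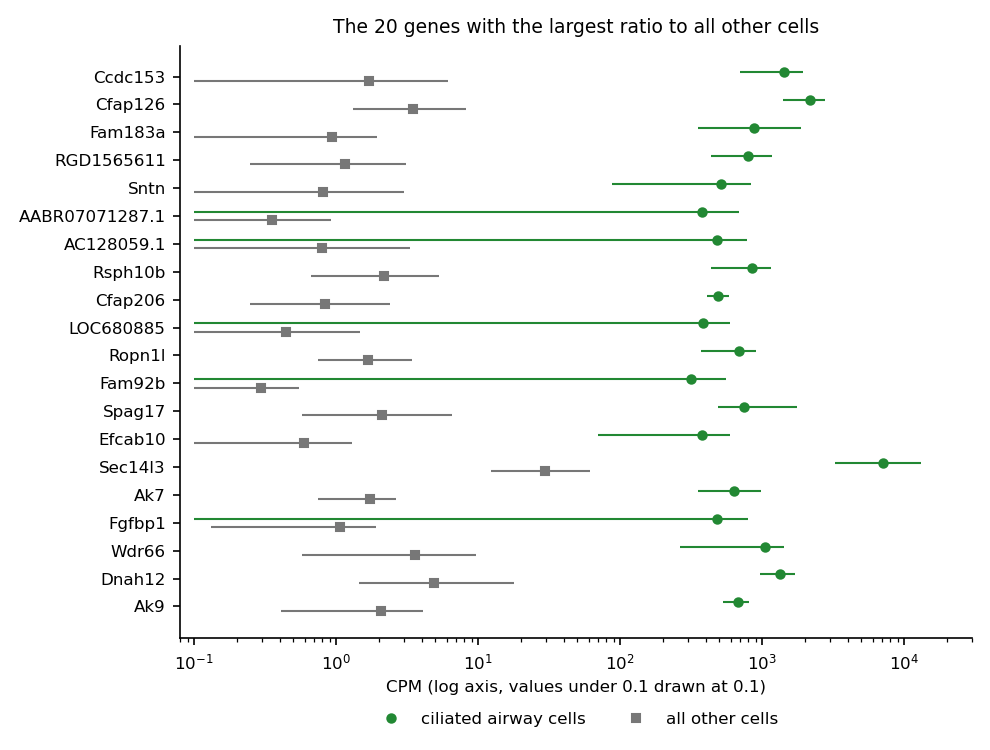
Levels of the 20 genes with the largest log2 ratio between ciliated airway cells and all other cells, the rule genes left out, on a log axis of CPM. Points are means over the 6 rats and lines run from the lowest to the highest rat, with values under 0.1 drawn at 0.1. The means of ciliated airway cells lie between 315 and 7126 CPM and those of all other cells between 0.296 and 29.4 CPM, and 5 genes had a rat whose members were at 0.

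Sequences before the start sites of leading genes are shown because the ciliary genes are known targets of RFX factors. They are the 250 bases upstream of each start in RefSeq on the GRCr8 build, written 5′ to 3′ on the gene's strand, and 15 of the 20 genes had an entry. That is 75% and below the 80% needed to read a share over the set, so none is given. On both strands, the X-box, read as GTNNCC and, after 3 free bases, GNAAC, occurred in 1.69% of 27457 promoters of the same length, the half-site GTTGCC in 9.90% and the forkhead core TGTTTAC in 3.25%. Of the 15 genes only Dnah12 held the X-box, 5 held a half-site and 1, Sntn, held the forkhead core. These counts are not read against the shares over all promoters. The 3 below are Dnah12 at chr16:1944502-1944751 on the plus strand, Ccdc153 (Drc12 in RefSeq) at chr8:53474409-53474658 on the plus strand and Fam183a (Cfap144 in RefSeq) at chr10:44019282-44019531 on the minus strand, with the X-box or half-sites in capitals.
Dnah12: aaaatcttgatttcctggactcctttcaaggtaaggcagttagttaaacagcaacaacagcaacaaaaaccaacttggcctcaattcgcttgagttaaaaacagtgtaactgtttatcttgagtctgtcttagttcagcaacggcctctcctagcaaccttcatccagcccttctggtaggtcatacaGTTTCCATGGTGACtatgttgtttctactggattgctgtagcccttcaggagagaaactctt
Ccdc153: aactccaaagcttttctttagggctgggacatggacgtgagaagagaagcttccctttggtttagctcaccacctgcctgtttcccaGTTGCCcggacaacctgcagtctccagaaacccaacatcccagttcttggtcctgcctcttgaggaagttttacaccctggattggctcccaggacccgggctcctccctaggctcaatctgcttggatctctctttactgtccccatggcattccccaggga
Fam183a: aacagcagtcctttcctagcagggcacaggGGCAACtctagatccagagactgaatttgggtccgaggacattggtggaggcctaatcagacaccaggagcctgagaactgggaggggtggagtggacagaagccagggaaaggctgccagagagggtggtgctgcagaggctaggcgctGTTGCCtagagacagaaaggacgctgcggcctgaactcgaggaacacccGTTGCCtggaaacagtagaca
The X-box match of Dnah12 begins 62 bases before its start, the half-site of Ccdc153 163 bases before it, and those of Fam183a 220, 70 and 21 bases before it. The Dnah12 match and the first half-site of Fam183a, GGCAAC, read as their motifs on the strand opposite to that printed. A match is a run of letters and does not show binding.

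Among the parts of the axoneme, nearly every measured gene was seen, and each of the 4 lists that follow holds 1 rule gene. Over all 11864 genes with a UMI in members, 2996 had one in at least 20% of them and 1176 of these also had a log2 ratio of at least 1. All 16 measured genes of docking complexes and nexin links had a UMI in at least 20% of members and a log2 ratio of at least 1, with a median ratio of 6.57. The same held for 16 of 17 dynein arm genes, 19 of 22 radial spoke and central pair genes and 21 of 24 genes of doublet inner proteins. Hydin of the central pair, for example, was at 620.0 ± 195 CPM and in 76.1% of members, against 0.312% of cells with Ptprc. Ccdc39, the ruler of the axonemal repeat, was at 653 ± 214 CPM and in 80.3% of members.

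Genes of building and maintaining the cilium came next. Of 39 genes of intraflagellar transport and the BBSome, 30 passed the same limits, with a median log2 ratio of 3.41, and Ift27, a small GTPase of the transport train, was at 472 ± 219 CPM against 19.1 in all other cells. Of 15 dynein assembly factors 12 passed, among them Lrrc6 at 233 ± 61.8 CPM against 0.386. Of 16 genes of basal body amplification 4 passed: Cetn2, Odf2, Ccp110 and Deup1. Deup1, which marks the structures that multiply centrioles before cilia form, had a UMI in 59 of 117 members, 50.4%, and in 0.218% of cells with Ptprc. Ccno, a gene of the same step, was seen in 5 members. Members with Deup1 had a median of 4422 UMIs and those without it 2671.5. Thinned to 1000 UMIs a cell, Deup1 was in 26 of 95 cells of BLM rats and in 2 of 9 of controls.

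Transcription factors were sparse, with 7 of 13 measured ones past both limits. Sox2, a factor of the conducting airway epithelium, was in 59.8% of members, and Rfx2, Myb and Tp73, known in multiciliated cell formation, were in 35.9%, 29.9% and 29.1%. Tubulins and the enzymes that modify them showed a split, with 3 of 20 past both limits. Those 3 were Tuba1a and 2 modifying enzymes, Agbl2 and Ttll9, while 9 of 20 lay at least 1 below all other cells on the log2 scale.

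Genes outside the cilium were also high. Of 30 detoxification and redox genes 11 passed both limits, among them Aldh1a1, an enzyme of retinoic acid synthesis, in 64.1% of members and 0.466% of cells with Ptprc, and Gpx2, a glutathione peroxidase, in 90.6% and 1.09%. Of 15 epithelial genes 13 passed, such as Epcam at 621 ± 326 CPM against 77.2 and Cdh1 at 412 ± 137 against 30.6. The rule did not use these genes.

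Markers of other cell types were mostly low or absent. None of the 9 measured basal cell genes reached 20% of members, and Krt5 and Tp63 had no UMI, which allows a share of cells with a UMI of up to 2.56% and sets no limit on cells expressing the gene. None of the 12 endothelial genes reached 20%, and of 21 leukocyte genes only Lyz2 did, at 48.7% of members against 73.4% of cells with Ptprc. The rule left out every cell with a UMI of Ptprc or Cdh5, so low leukocyte and endothelial genes follow in part from it. Of 21 airway secretory genes 4 passed both limits, Wfdc2, Cyp4b1, Scgb1a1 and Pigr, while 6 lay at least 1 below all other cells on the log2 scale, and the median was 0.62. Wfdc2 was in 94.0% of members and Scgb1a1 in 82.1%, against 2.40% and 15.8% of cells with Ptprc, while Scgb3a2 was in 9 members, 7.69%. Of the stromal and mesothelial genes only Msln, in 43.6%, passed 20%. Of 10 alveolar type 1 and of 8 MHC class II genes 3 each passed 20% of members, none of them with a log2 ratio of 1 or more, and of 11 alveolar type 2 genes Sftpd alone passed both limits, in 29.9%.

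**Figure D2:**
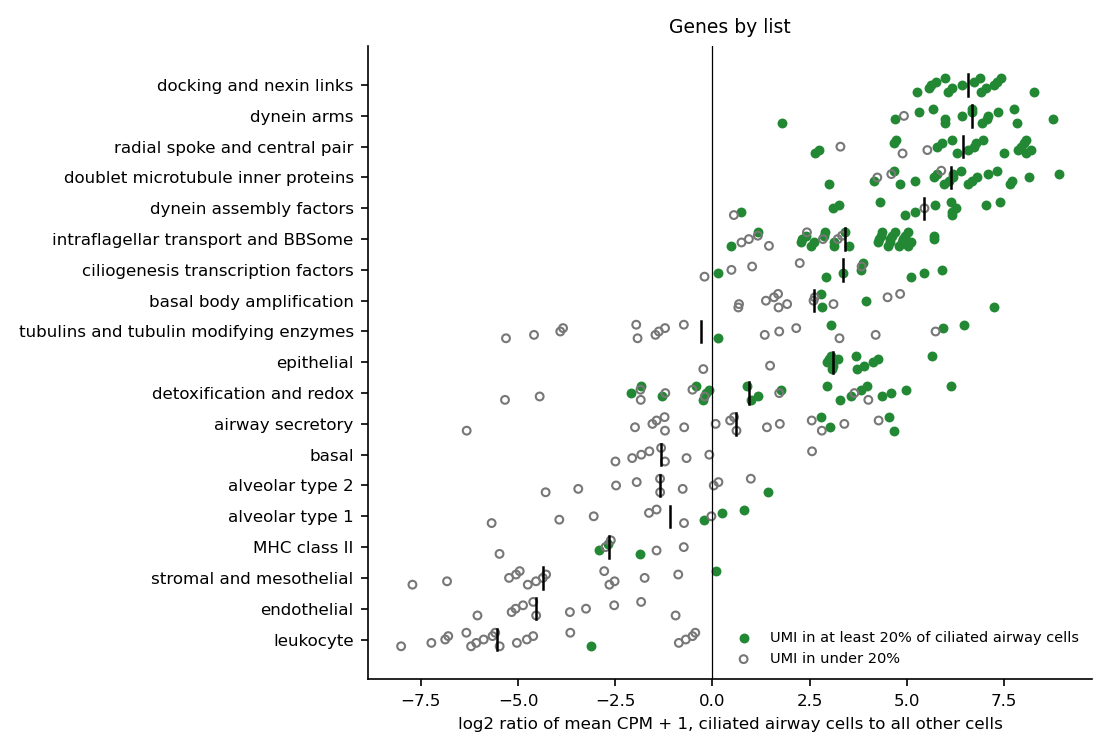
Log2 ratio of mean CPM + 1 between ciliated airway cells and all other cells for measured genes of 19 lists. Ptprc and Cdh5 are not drawn, and bars are medians of the points drawn. Filled points had a UMI in at least 20% of the 117 cells. Over all measured genes of a list the medians run from 6.57 for docking and nexin links to -5.59 for leukocyte genes. The rule's conditions on Ptprc and Cdh5 lower the leukocyte and endothelial genes.

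Ciliated airway cells made up a larger share of the captured cells in BLM than in control rats. They were 0.178%, 0.156% and 0.0435% of all cells in control replicates 1 to 3 and 0.465%, 0.962% and 0.413% in BLM replicates 1 to 3. The groups did not overlap, and BLM replicate 2 stood highest. The means were 0.126% ± 0.0721 and 0.614% ± 0.303 (SD, n = 3), a ratio of 4.88. In edgeR's quasi-likelihood test on cell counts the log2 fold change was 2.35 (SE 0.71, adjusted p = 0.0221). The two-sided exact permutation test of the shares gave p = 0.1, the smallest p that 3 against 3 allows. The call was lost without control replicate 2 (adjusted p = 0.0585), control replicate 3 (0.0694) or BLM replicate 2 (0.0722) in the same edgeR test, with log2 fold changes of 2.53, 1.88 and 1.84.

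The denominator moved the size of the difference. Of cells with at least 2 of the epithelial genes Epcam, Cdh1, Krt8, Krt18 and Krt19 and without Ptprc and Cdh5, members were 1.23%, 2.01% and 0.806% in controls and 13.9%, 21.8% and 6.64% in BLM rats. The number of all such epithelial cells was 244, 149 and 248 in controls and 108, 266 and 226 in BLM rats. Members counted among them were 3, 3 and 2 in controls and 15, 58 and 15 in BLM rats, since members without 2 of these genes drop out. Epcam, Cdh1 and Krt18 were higher in the members of every BLM rat, and the part of this in the share was not tested. Set against the cluster of 379 airway secretory cells alone, led by Chia, Scgb3a2 and Cyp2f4, members were 28.6%, 13.8% and 2.99% of both kinds together in controls and 18.3%, 35.8% and 19.0% in BLM rats. In that ratio within the airway epithelium the groups overlapped (15.1% ± 12.8 against 24.4% ± 9.91, n = 3, two-sided exact permutation p = 0.4). The share of airway tissue in each digested piece of lung was not tested.

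**Figure D3:**
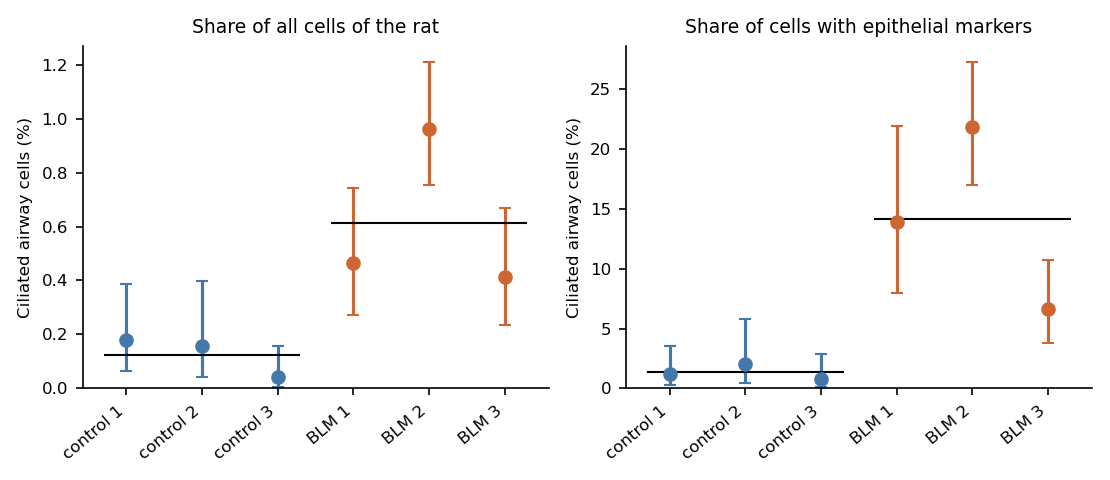
Share of ciliated airway cells per rat, in percent of all cells (left) and of cells with epithelial markers (right). Points are rats with 95% exact binomial intervals, which cover counting error only, and lines are group means. The 3 BLM rats lie above the 3 control rats in both panels, from 0.413% to 0.962% against 0.0435% to 0.178% on the left.

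Within the cells, no gene passed the threshold between BLM and control rats in edgeR's fit on all rats. UMIs were summed over the members of each rat, and 704 genes had enough of them for edgeR's quasi-likelihood test. None passed an adjusted p of 0.05 (percent called 0 in both directions), 71 higher (10.1%) and 63 lower (8.95%) genes had an unadjusted p under 0.05, and DESeq2 called 19 higher (2.70%) and 27 lower (3.84%). The CPM of the 3 BLM rats lay above those of all 3 controls for 134 genes (19.0%) and below for 52 (7.39%). These CPM use the UMI totals alone. In the edgeR fit, which also scales each rat by a normalization factor, 366 genes had a positive and 338 a negative log2 fold change. The filter on low counts kept a gene by its level in at least 3 rats, so a gene could enter through a single group. St14, Hopx, Dnah6 and Cfap52 entered only through the BLM rats, and Trim28 only through controls. Counts of tested genes above or below, and their shares over all genes tested, are subject to this. As no gene passed in edgeR, the genes that follow are given by their values.

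The 5 genes with the smallest p shared an adjusted p of 0.0626 in edgeR. B2m, the light chain of MHC class I, was at 1046, 1474 and 1752 CPM in controls and 4859.5, 6632 and 6916 in BLM rats (log2 fold change 1.95, SE 0.40). S100a6, a calcium-binding protein, was at 209, 1401 and 350 CPM against 3929.6, 9735 and 4833 (3.10, SE 0.63). For both, each BLM rat lay well above each control. In all other cells mean B2m was 9459.5 CPM in controls and 10134 in BLM rats, with overlap, and mean S100a6 was 3323 and 1972, lower in every BLM rat.

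The other 3 were lower in the BLM rats. Eif3c, a subunit of translation initiation factor 3, was at 767, 811 and 613 CPM against 255, 224 and 228 (log2 fold change -1.79, SE 0.32). Trim28, a corepressor, was at 558, 295 and 438 CPM against 60.0, 63.0 and 114 (-2.67, SE 0.55), on 17 UMIs in controls and 27 in BLM rats. Sftpa1, a surfactant protein of alveolar type 2 and some airway cells, was at 349, 737 and 3329 CPM against 0, 82.7 and 179 (-4.20, SE 0.86). It was -2.62 without control replicate 3. Cells with Ptprc, which should lack Sftpa1, held it at 302 to 590.3 CPM in controls and 33.5 to 145 CPM in BLM rats, the same order without overlap. The part of such free RNA in the result was not tested.

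Secretory transcripts differed in both directions. Scgb1a1 was at 34875, 18652 and 126938 CPM in controls and 5294, 7183 and 7387 in BLM rats, with no overlap (log2 fold change -3.42, SE 0.80, adjusted p = 0.069 in edgeR). It was -1.98 without control replicate 3. At least 20 UMIs of Scgb1a1 were held by 8 of 12 control and 25 of 105 BLM members, a limit set with the values known. Thinned to 1000 UMIs a cell, Scgb1a1 was in 8 of 9 control and 64 of 95 BLM members. In cells with Ptprc Scgb1a1 was at 156 to 1677 CPM in controls and 341 to 922 in BLM rats, groups that overlap. Cyp4b1, a cytochrome P450 of airway cells, was at 3208, 3318 and 1139 CPM against 1035, 587 and 1106. In all other cells too Cyp4b1 was lower in every BLM rat, with means of 108 CPM in controls and 39.2 in BLM rats. Pigr, the receptor that carries immunoglobulin A into the airway, was at 418, 1474 and 964 CPM against 2295, 2973 and 3368, and Wfdc2 at 628, 2433 and 1752 against 3899.6, 3958 and 5061. All 4 tested secretory genes, of 21 measured, thus separated the groups, 2 of them in each direction. Over all genes tested 19.0% lay above in every BLM rat and 7.39% below.

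**Figure D4:**
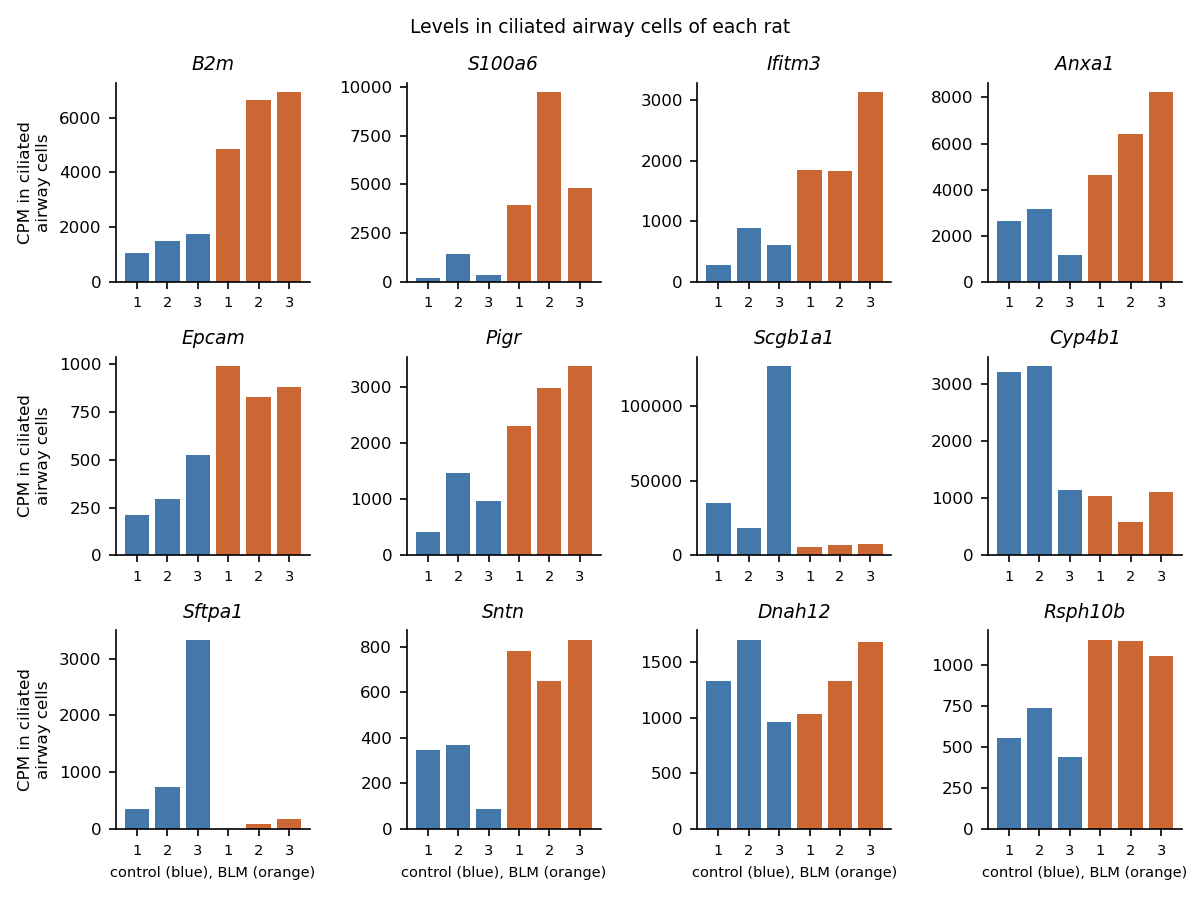
CPM of 12 genes in the ciliated airway cells of each rat (replicates 1 to 3, control in blue and BLM in orange), with bars from 0. B2m, S100a6, Ifitm3, Anxa1, Epcam, Pigr, Sntn and Rsph10b are higher in each BLM rat than in each control. Scgb1a1, Cyp4b1 and Sftpa1 are lower, and Dnah12 overlaps. None passed the adjusted threshold in edgeR. In DESeq2 all but Sntn, Rsph10b and Dnah12 had an adjusted p under 0.05.

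The summed levels of the interferon and injury lists were higher in every BLM rat than in every control, on few tested genes. None of these passed in edgeR. DESeq2 called 2 of 3 tested interferon genes higher, and of 7 tested injury genes 3 higher and 1 lower. Over all genes tested it called 2.70% higher and 3.84% lower. The summed level of 18 MHC class I and interferon genes, B2m among them, was 1534 to 2803 CPM in controls and 8039 to 12009 in BLM rats, against 10782 to 15971 in all other cells of the 6 rats. B2m and Ifitm3 made up most of the sum. Of its 3 tested genes 2 lay above in every BLM rat, beside 19.0% of all genes tested. The median log2 fold change was 1.95 against 0.03 over all genes tested. Ifitm3, an antiviral membrane protein, was at 279, 885 and 613 CPM against 1845, 1831 and 3124 (1.78, SE 0.43). In all other cells too it was higher in every BLM rat, with means of 109 CPM in controls and 649 in BLM rats. Ifi27 was at 0, 0 and 350 CPM against 795, 236 and 1123, and its groups overlapped.

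The 21 measured genes linked to epithelial injury summed to 3855 to 8478 CPM in controls and 14219 to 25511 in BLM rats. Of 7 tested, 5 lay above in every BLM rat and none below, beside 19.0% and 7.39% of all genes tested. The median over the 7 was 1.33. Ciliated cells of BLM rats thus lay in the range of all other cells, whose sums were 13298 to 21094 CPM over the 6 rats, or above it. Besides S100a6 these included Lgals3, a galectin, at 1255, 1032 and 526 CPM against 2189.8, 4584 and 3759, Anxa1, an annexin, at 2650, 3170 and 1139 against 4649.6, 6431 and 8217, and Cldn4, a claudin, at 139, 295 and 87.6 against 420.0, 957 and 456. Cdkn1a, an inhibitor of the cell cycle on the same list, was at 1534, 811 and 350 CPM against 345, 441 and 374, so that its groups overlapped. In all other cells Cldn4 was also higher in every BLM rat, with means of 11.1 and 28.1 CPM, while Lgals3 and Anxa1 overlapped. Cells with Ptprc held Lgals3 at 3328 to 5883 CPM in controls and 4158 to 6106 in BLM rats. They held Anxa1 at 3690 to 5030 and 4162 to 4367 CPM. The part of free RNA in these levels was not tested.

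Epithelial genes showed a like pattern. Of 10 tested, 8 lay above in every BLM rat and none below, beside 19.0% and 7.39% of all genes tested. The median log2 fold change over the 10 was 0.64. Cldn4 is counted both here and on the injury list. Epcam was at 209, 295 and 526 CPM in controls and 989.9, 827 and 879 in BLM rats, on 13 UMIs in controls. St14, a membrane protease, was at 69.7, 0 and 87.6 CPM against 285, 327 and 423, and Elf3, an epithelial transcription factor, at 488, 664 and 613 against 959.9, 1276 and 1123. St14 rested on 2 UMIs in controls and was among the 10 tested only through its level in the BLM rats. In all other cells St14 was also higher in every BLM rat, with means of 18.7 and 27.3 CPM, while Epcam and Elf3 were lower. Nkx2-1, a lung lineage factor and the 1 tested gene of the transcription factor list, had the opposite order, at 349, 369 and 701 CPM against 165, 126 and 65.1. In all other cells too Nkx2-1 was lower in every BLM rat, with means of 65.1 CPM in controls and 11.2 in BLM rats. Hopx, the alveolar type 1 gene tested, was at 69.7, 73.7 and 263 CPM against 465, 638 and 1025, on 1, 1 and 3 UMIs in controls. Cells with Ptprc held Hopx at 221 to 414 CPM in controls and 426 to 553 in BLM rats, the same order without overlap. In all other cells the groups overlapped.

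Genes of the cilium had smaller differences and most of them overlapped. The median log2 fold change was 0.41 over 13 tested doublet inner proteins, 0.40 over 9 dynein arm genes, 0.39 over 7 docking and nexin link genes, 0.15 over 9 radial spoke and central pair genes and 0.27 over 16 transport genes. Groups did not overlap for 6, 3, 2, 1 and 2 of them, each time with BLM above, beside 19.0% of all genes tested. For the radial spoke and transport lists that is a share below the background. All other cells, which hold 76 cells of the ciliated cluster, gave median log2 ratios of BLM to control of 0.42, 0.50, 0.68, 0.51 and 0.31. These are for the same lists in the same order, on the CPM + 1 scale. No tested gene of these lists passed the interaction test given below. Tekt1, a rule gene, is 1 of the 6 doublet genes that separated the groups, and Cfap53 is counted in both the doublet and the docking list. Control replicate 3 rests on 2 cells, and without it the medians in members were 0.40, 0.54, 0.26, 0.31 and 0.31. Sntn was at 349, 369 and 87.6 CPM in controls and 779.9, 649.8 and 829.9 in BLM rats, Dnah6 at 139, 221 and 0 against 420.0, 567 and 618, and Rsph10b at 558, 737 and 438 against 1155, 1146 and 1058. Cfap53 was at 0, 442 and 87.6 CPM against 585, 595 and 472. Dnah12, with more UMIs than these, overlapped, at 1325, 1696 and 964 CPM against 1035, 1327 and 1676 (log2 fold change -0.13, SE 0.32).

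The smaller lists add few values. Of 3 tested basal body genes Cetn2 separated the groups, at 488, 516 and 526 CPM against 945, 981 and 1155. Of 2 assembly factors, 2 tubulin genes and 7 genes of adenylate kinases and energy none did. Dnai2 and Dnah7 of the dynein arms, Cfap52 of the doublet, Ccdc96 and Ift27 lay above in every BLM rat, with log2 fold changes between 0.61 and 1.23. The summed level of the dynein arm list was 3942 to 7004 CPM in controls and 6809 to 7729 in BLM rats, and control replicate 3 was lowest.

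**Figure D5:**
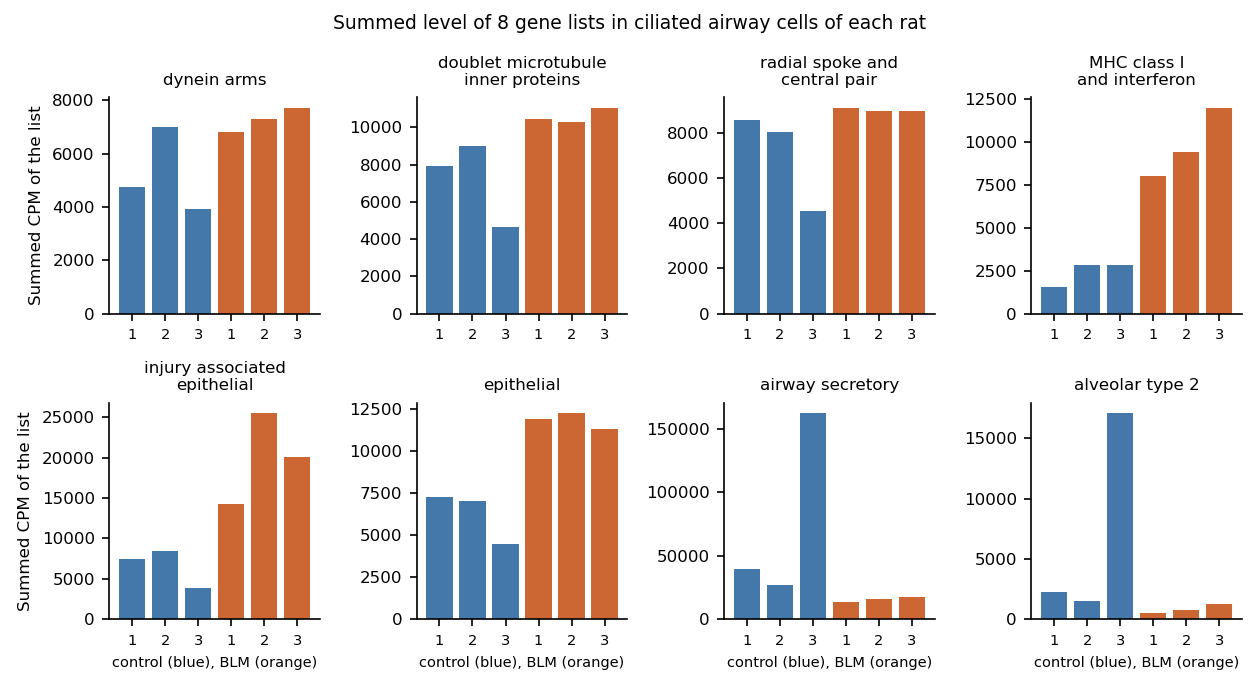
Summed CPM of 8 gene lists in the ciliated airway cells of each rat (replicates 1 to 3, control in blue and BLM in orange), with bars from 0. The MHC class I and interferon list runs from 1534 to 2803 CPM in controls and 8039 to 12009 in BLM rats, and control replicate 3 is lowest on the 3 ciliary lists and highest on the secretory and alveolar type 2 lists.

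Detoxification genes gave no separation, with 0 of 15 tested on either side, beside 19.0% above and 7.39% below of all genes tested. The median over the 15 was 0.02. Gsta1, a glutathione transferase, was at 349, 1991 and 526 CPM against 435, 303 and 163, Cyp2s1 at 1116, 958 and 350 against 705, 303 and 228, and Aldh1a1 at 1465, 7004 and 1051 against 1515, 898 and 1822. Control replicate 2 was highest for Gsta1 and Aldh1a1. Lyz2, the leukocyte gene tested, was at 9207, 295 and 7972 CPM against 120, 1343 and 277, and Sftpd at 209, 0 and 5256 against 330, 477 and 504. In all other cells both were lower in every BLM rat. Means there were 40540 CPM in controls and 15377 in BLM rats for Lyz2, and 646 and 188 for Sftpd.

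Whether the BLM effect in these cells differed from that in the rest of the suspension was tested as an interaction over both sums of each rat. The difference of the effects passed an adjusted p of 0.05 in edgeR for 14 genes in the positive direction (1.99%) and 8 in the negative (1.14%). The rest of the suspension changed in its cell types between the groups, and for 12 of the 14 the level in all other cells was lower in every BLM rat. Pigr gave the largest positive difference, 4.12 (SE 0.40), with 472 CPM in the other cells of controls and 84.0 in those of BLM rats. S100a6 gave 3.91 (SE 0.63), Cfap43, a ciliary gene at 69.7 to 589.8 CPM in control and 937 to 1269 in BLM members, 3.36 (SE 0.50), and Epcam 2.48 (SE 0.47).

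The negative differences were led by Igfbp5, an insulin-like growth factor binding protein, at -4.29 (SE 0.89), whose other cells went from 132 to 1129 CPM. Members held Igfbp5 at 837, 3539 and 263 CPM in controls and 1140, 331 and 488 in BLM rats, so that their groups overlapped. Cdkn1a gave -2.45 (SE 0.42), with 153 and 360 CPM in the other cells of controls and BLM rats against 899 and 387 in members. Eif3c gave -1.85 (SE 0.34) and Trim28 -2.61 (SE 0.55), and for both the other cells of the groups overlapped. Leaving out BLM replicate 3 gave 1 positive and 0 negative differences over 204 genes tested, and leaving out BLM replicate 2 gave 3 and 0 over 215.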

How the data were processed

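Single-cell suspensions of lungs from 3 control and 3 BLM rats were profiled with BD Rhapsody, and the authors deposited 1 table of UMI counts per cell and gene, not normalized. The submitters' processing notes name the genome build mm9, a mouse build, while the gene names of the table are those of rat, and no coordinates were taken from it. No column of another sample was present. Which aligner was used is not given in the sources used here. The members and gene lists were chosen with earlier results of these data known.

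UMI counts as deposited were summed per rat over the members and over all other cells. Genes kept by filterByExpr were tested in R 4.3.3 with the quasi-likelihood test of edgeR 4.0.16 (TMM factors, Benjamini-Hochberg adjustment, threshold 0.05), and DESeq2 1.42.0 was an alternative. Counts of cells were tested with edgeR over 28 classes, which were the members and the clusters of the remaining cells, with all cells of a rat as the library. Clusters came from scanpy 1.11.5 and leidenalg 0.10.2 in Python 3.11.15 (2000 variable genes, 30 components, 15 neighbours, resolution 1.0, rule genes left out). No cell was filtered. Scrublet called 0.388% of cells and no member, too few to have worked. Intervals are exact Clopper-Pearson at 95%, and like the limit of 3 counts for a 0 they cover counting error only.

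Named genes were the 20, rule genes left out, with the largest log2 ratio of mean CPM (pseudocount 1) among those with a UMI in at least 20% of members, the 5 with the smallest p between the groups, and examples of each list by level or p. Genes named beyond these were chosen after their values were seen. The models were tested on simulated data. Alternatives were other scalings, filters, membership rules, denominators, DESeq2, a replicate block and leaving out each rat.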

Additional observations from a re-analysis of the deposited data

Results flagged for a closer look

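The BLM effect differed between ciliated airway cells and all other cells for 22 genes, by edgeR's test of the interaction at an adjusted p of 0.05. The values are the effect in the members minus that in all other cells, on the log2 scale. Pigr gave 4.12, S100a6 3.91, Pls1 3.73, Cfap43 3.36, Fuca1 2.66, Slc44a4 2.63 and Tmc4 2.55. Epcam gave 2.48, Elf3 2.34, Ucp2 2.18, Cdh1 2.14, Sqle 2.11, Cldn7 2.01 and Car8 1.93. Of these 14 genes, 13 lay higher in the members of every BLM rat than in those of every control, Car8 being the exception. The negative values were -1.72 for Nedd4, -1.85 for Eif3c, -2.22 for Atp2b1, -2.45 for Cdkn1a, -2.57 for Cyp2s1, -2.61 for Trim28, -2.97 for Fam227a and -4.29 for Igfbp5. Of these 8 genes, 5 lay lower in the members of every BLM rat, and for 5 all other cells lay higher in every BLM rat. All other cells differ in their mix of cell types between the groups, and the part of that mix was not tested.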

How the results depend on the processing

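The share of ciliated airway cells stayed higher in BLM rats in edgeR's test under the alternatives of membership, filter, scaling and rats left out, and of 2 other denominators. As a share of ciliated and secretory cells together the groups overlapped. Leaving out 1 rat gave log2 fold changes of 1.84 to 2.76, and the call was lost without control replicate 2, control replicate 3 or BLM replicate 2. Applying the rule after thinning each cell to 500 UMIs gave 3.71, on 2, 0 and 0 control members and 12, 30 and 5 BLM members, and leaving out members with Scgb3a2, an alternative chosen after seeing the data, gave 2.51.

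Counts of genes between BLM and control depended on the tool and the filter. DESeq2 called 19 higher and 27 lower, and no filter on low counts gave 143 and 17 over 11864 genes, where the median of the 704 genes went from 0.03 to 0.82. Without members with Scgb3a2 1 gene was lower, Trim28. Leaving out 1 rat gave 0 to 13 higher and 0 to 9 lower, with 204 to 1707 genes tested. Without control replicate 2 they were 13 and 9, without control replicate 1 they were 0 and 6, and without control replicate 3 they were 1 (B2m) and 1 (Cyp4b1). For the differences of effects, DESeq2 gave 17 lower, no filter gave 131 higher and 16 lower, and leaving out 1 rat gave 1 to 16 higher and 0 to 9 lower. Sftpd turned from -2.18 to 0.82 without members with Scgb3a2, and leaving out 1 rat gave -2.53 to 2.07, the last without control replicate 3. Aldh1a1 ran from -1.61 to 0.17, the last without control replicate 2.

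The rats share only replicate numbers. The correlations of same-numbered deviations were 0.093, -0.029 and 0.078, so the numbers were not taken as pairing, and control replicate 2 correlated best with BLM replicate 1. With the replicate block the share gave 2.30, and 1 gene was higher (S100a6) and 2 were lower (Sftpa1 and Sftpc).

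Precision is limited by the 12 control members and their 39316 UMIs. A single UMI in the control sums is 69.7 CPM or more.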
